A study of Mus musculus with 9 samples.

Results

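The 9 genes described here belong to the Nr4a, Egr and Ier groups of immediate early genes: Nr4a1, Nr4a2, Nr4a3, Egr1, Egr2, Egr3, Ier2, Ier3 and Ier5. They were selected by symbol, on a list chosen by their levels in meninges and lung in an earlier look at these libraries, and all 9 were found among the 23466 genes of the count table. The measured cells were group 2 innate lymphoid cells (ILC2s), lymphocytes that live in tissues and make type 2 cytokines, from 10-week-old wild-type C57/Bl6 mice. The 3 groups, with 3 libraries each, were brain meninges of mice killed 24 h after an 80 kdyn spinal cord contusion (injured meninges), brain meninges of mice without injury (uninjured meninges) and lung of mice without injury (uninjured lung). Meninges were dissected and digested, and live cells positive for CD45, St2 and Thy1 and without lineage markers were sorted straight into lysis buffer. No group was labelled as sham-operated, so the contusion and the surgery around it cannot be told apart. The labels give 5 pooled mice per group and do not say whether each library had its own pool, so the spread between libraries may be technical.

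Immediate early genes are switched on within minutes of a stimulus, without new protein synthesis, and their messages are short-lived. The 3 NR4A proteins are orphan nuclear receptors that bind DNA without a known classical hormone, and the EGR proteins are zinc finger transcription factors that the NAB corepressors bind. In T lymphocytes both families rise with antigen receptor and calcium signalling, and the NR4A proteins, EGR2 and EGR3 are known for restraining activation. Ier2 and Ier5 encode related nuclear proteins, and Ier3 encodes a small protein linked to cell survival under stress. Genes of this class are also known to rise while tissue is being digested into single cells. Whether digestion contributed to any level given here was not tested.

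The promoters of the Nr4a genes are shown because these 3 genes had the same order of tissues, high in lung and low in meninges, in the values that follow. Each sequence is the 250 bases before the annotated transcription start, from RefSeq on build GRCm38.p6, printed 5′ to 3′ on the strand of the gene. Capitals mark the core of the cAMP response element (TGACG, or CGTCA where it lies on the other strand), through which the cAMP-activated factor CREB is known to act on this family. The windows lie at chr15:101266596-101266845 (plus strand) for Nr4a1, chr2:57124004-57124253 (minus strand) for Nr4a2 and chr4:48045055-48045304 (plus strand) for Nr4a3.
Nr4a1: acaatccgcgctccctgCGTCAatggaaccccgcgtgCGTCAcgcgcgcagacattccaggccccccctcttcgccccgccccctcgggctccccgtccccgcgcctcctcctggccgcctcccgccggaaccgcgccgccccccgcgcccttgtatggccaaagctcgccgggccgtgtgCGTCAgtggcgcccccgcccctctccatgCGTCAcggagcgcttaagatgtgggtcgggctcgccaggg
Nr4a2: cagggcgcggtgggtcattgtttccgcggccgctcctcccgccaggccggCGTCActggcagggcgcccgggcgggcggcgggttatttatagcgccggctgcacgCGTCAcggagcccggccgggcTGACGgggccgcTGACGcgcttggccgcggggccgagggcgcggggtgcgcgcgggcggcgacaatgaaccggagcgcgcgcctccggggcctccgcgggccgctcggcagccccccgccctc
Nr4a3: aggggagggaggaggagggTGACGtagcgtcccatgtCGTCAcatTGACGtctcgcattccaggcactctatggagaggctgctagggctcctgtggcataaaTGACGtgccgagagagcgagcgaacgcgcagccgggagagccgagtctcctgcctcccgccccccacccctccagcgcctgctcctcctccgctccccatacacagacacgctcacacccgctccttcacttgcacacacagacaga

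Each of the 3 Nr4a windows held 4 such cores, with no overlap between cores. Of 32851 promoter windows of the same length, 17.8% held at least 1 core, 3.9% at least 2 and 0.137% at least 4, counting both strands. None of the 3 held the full palindrome TGACGTCA, which 1.55% of windows held, or a CArG box, the element bound by serum response factor, which 1.47% held. For comparison, an Egr2 window at chr10:67537619-67537868 (plus strand) is printed with its CArG box in capitals. It comes from 1 of 5 annotated starts of that gene and was picked because no other Egr2 window held more CRE cores and CArG boxes.
Egr2: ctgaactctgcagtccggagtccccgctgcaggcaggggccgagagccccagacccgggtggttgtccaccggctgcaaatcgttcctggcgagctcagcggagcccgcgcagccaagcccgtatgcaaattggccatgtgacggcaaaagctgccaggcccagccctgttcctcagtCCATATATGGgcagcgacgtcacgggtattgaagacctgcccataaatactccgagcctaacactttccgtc

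The Egr2 window also held 2 CRE cores. The search covered 6 motifs on both strands, the others being TATAAA, the EGR site GCGTGGGCG and the NR4A site AAAGGTCA. Of these, the Nr4a2 window held 1 TATAAA match on the other strand, and 12.4%, 0.536% and 1.34% of all windows held the 3 motifs in that order. The windows of Ier3 and Ier5 held no match to any of the 6. Nor did the Egr2 window that starts at 67535249, and the Egr2 window that starts at 67537316 held 1 CArG box and no CRE core. A match describes these letters only and was not tested as a binding site.

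**Figure D1:**
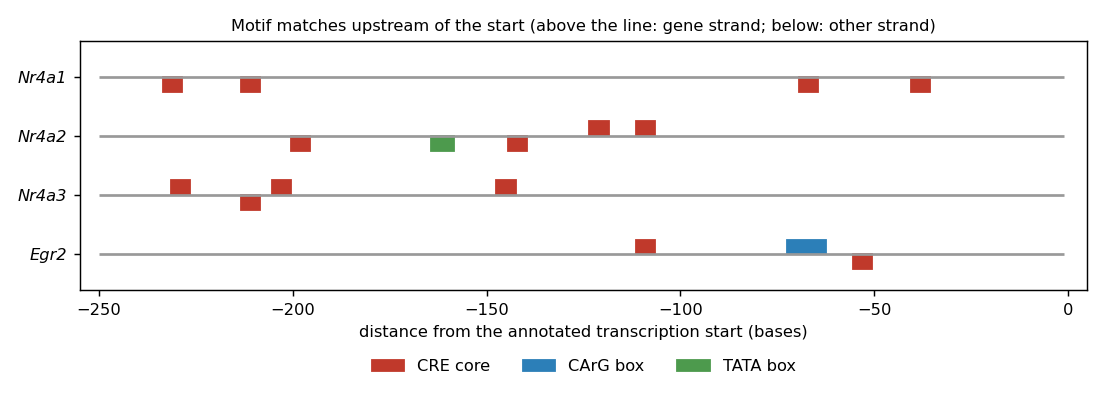
Motif matches in the 250 bases before the annotated start of Nr4a1, Nr4a2, Nr4a3 and Egr2, by distance from the start in bases; boxes above a line lie on the gene's strand and boxes below it on the other strand. Each Nr4a window held 4 CRE cores, and the Egr2 window shown, picked from 5 for its matches, held 1 CArG box and 2 CRE cores.

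The 9 libraries held 13407277 to 18253462 counts, and between 13465 and 18452 genes had at least 1 count. Injured meninges 2 had the fewest genes and stood apart, with a median Spearman correlation across genes of 0.797 to its own group, against 0.825 to 0.873 for the other libraries, so values with and without it are given where it moves a result. Levels are in CPM, that is, counts scaled to a common library total with edgeR's TMM factors. In 1 library, a count of 0 allows up to 3 counts, which is 0.163 to 0.239 CPM and covers counting error only. Genes of the sort gate were at 1852 to 2694 CPM for Il1rl1, which encodes St2, and 1301 to 2069 CPM for Ptprc, which encodes CD45, over the 9 libraries. Thy1, also in the gate, had 92.5, 60.1 and 51.4 CPM in injured meninges, 279, 167 and 229 CPM in uninjured meninges and 153, 166 and 138 CPM in lung, with all injured libraries below all others. Lung epithelial markers summed to 10.5 to 27.7 CPM in injured meninges, 4.03 to 11.7 CPM in uninjured meninges and 685 to 2152 CPM in lung, with all 9 markers in the table. Sftpc, Krt18 and Krt8 were at 0 in injured meninges, and Sftpd and Krt18 in uninjured meninges.

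The 3 Nr4a genes were high in lung and low in meninges. Nr4a1, which antigen receptor signals induce in T cells, had 12.8, 8.43 and 17.4 CPM in injured meninges, 4.03, 11.8 and 60.3 CPM in uninjured meninges and 601, 1336 and 1167 CPM in lung. All 3 lung libraries lay above all 6 meningeal libraries, and the meningeal groups overlapped. Nr4a3 had 78.9, 51.7 and 84.0 CPM in injured meninges, 7.18, 24.3 and 23.9 CPM in uninjured meninges and 506, 1100.0 and 1249 CPM in lung. Its 3 groups did not overlap, with lung highest, injured meninges next and uninjured meninges lowest. Nr4a2, best known for its part in dopamine neurons, had 15.95, 6.52 and 9.96 CPM in injured meninges, 0.327, 1.10 and 57.6 CPM in uninjured meninges and 135, 256 and 219 CPM in lung. Its lung libraries were above all others, and uninjured meninges 3 stood above every injured library. In these bulk libraries, fewer cells with a message and less message per cell cannot be told apart.

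**Figure D2:**
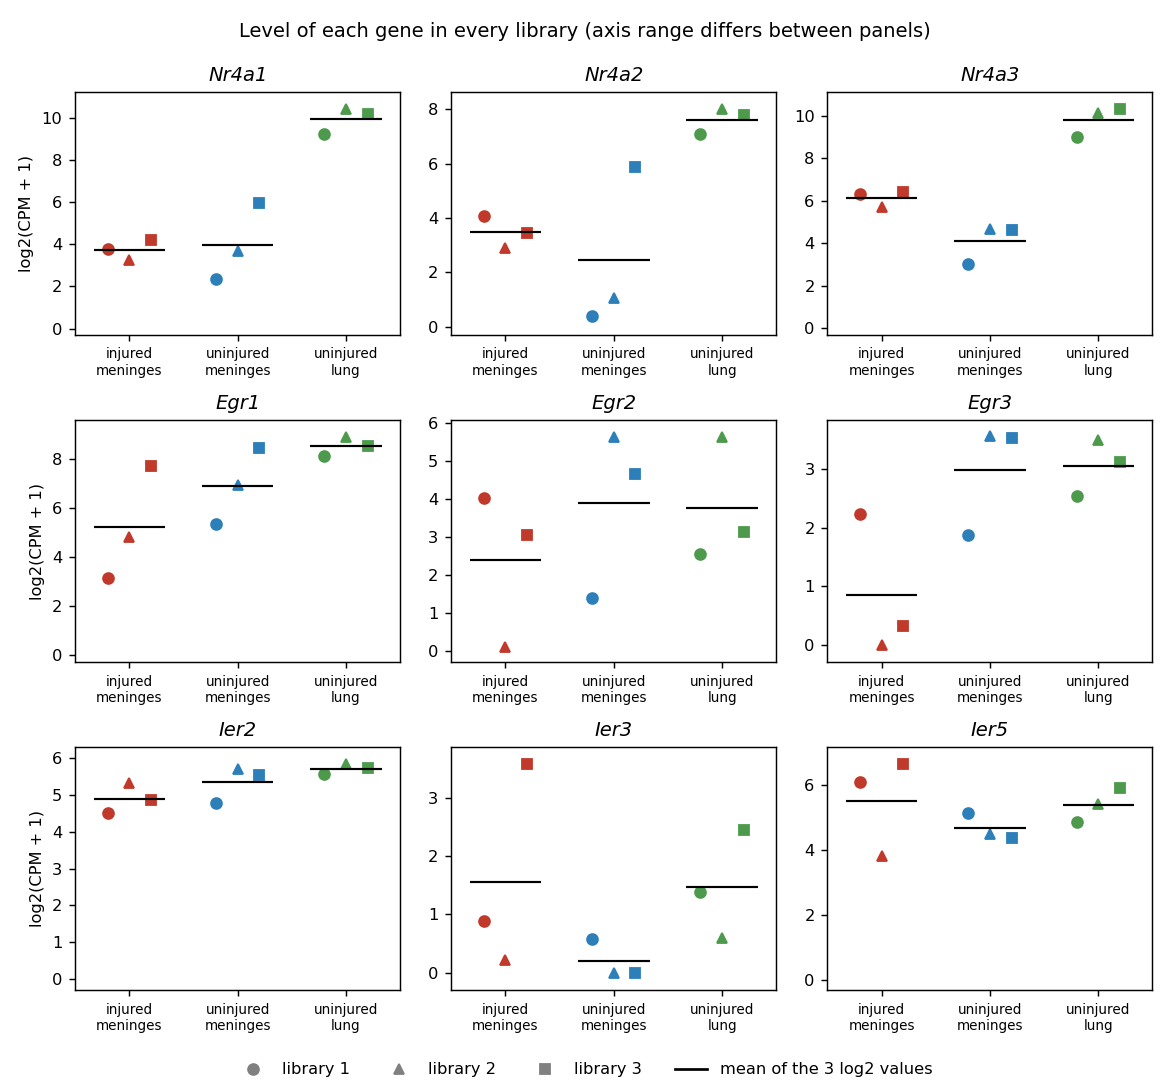
Level of each of the 9 genes as log2(CPM + 1) in the 3 libraries of injured meninges (red), uninjured meninges (blue) and uninjured lung (green); marker shapes give the library number and black lines the mean of the 3 log2 values. All lung libraries lie above all meningeal libraries for Nr4a1, Nr4a2 and Nr4a3, while Nr4a3 alone has all injured libraries above all uninjured meningeal libraries.

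The tissue comparison set uninjured meninges against uninjured lung. The 9 genes were picked with its results in view (immediate early genes, Nr4a3 first among them, were already known to be lower in meninges), so its values are a description and its calls support nothing. Nr4a3 had a mean of 18.5 CPM (SD 9.76, n = 3) in uninjured meninges and of 952 CPM (SD 393, n = 3) in lung, and its fitted log2 fold change was -5.69 with an SE of 0.49. For Nr4a1 the means were 25.4 ± 30.5 CPM in uninjured meninges and 1035 ± 385 CPM in lung, with a log2 fold change of -5.35 ± 1.02. For Nr4a2 they were 19.7 ± 32.9 CPM in uninjured meninges and 203 ± 62.1 CPM in lung, with a log2 fold change of -3.37 ± 1.59. Both varied widely among the uninjured meningeal libraries. One of the 9, Nr4a3, was called lower by edgeR at an adjusted p under 0.05, where 0.635% of 15117 tested genes were called and 0.595% were called lower. Of the 9, 4, the Nr4a genes and Ier3, had uninjured meningeal libraries all below the lung libraries, against 10.6% of all tested genes. For Ier3 this rested on the scaling, since uninjured meninges 1 had 9 counts (0.490 CPM) and lung 2 had 7 counts (0.516 CPM). Without uninjured meninges 3, the library with the high Nr4a1 and Nr4a2 levels, all 3 Nr4a genes were called lower, with log2 fold changes of -7.03 ± 0.60 for Nr4a1 and -8.16 ± 0.72 for Nr4a2. Without uninjured meninges 1, Nr4a1 was called as well as Nr4a3.

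The libraries of all 3 Egr genes overlapped between uninjured meninges and lung. Egr1, which serum and growth factors induce in many cell types, had 39.8, 120 and 342 CPM in uninjured meninges and 276, 469 and 362 CPM in lung, so the highest meningeal library reached into the lung range. Its log2 fold change was -1.14 ± 1.17 (95% interval -3.88 to 1.59). Egr2 had 1.63, 48.1 and 24.0 CPM in uninjured meninges and 4.85, 48.6 and 7.69 CPM in lung. Egr3 had 2.67, 10.8 and 10.5 CPM in uninjured meninges and 4.79, 10.2 and 7.69 CPM in lung. Egr2 and Egr3 are known for restraining T cell activation. Their log2 fold changes of 0.27 ± 1.26 and 0.07 ± 1.44 had 95% intervals from -2.42 to 2.97 and from -2.98 to 3.13, so differences of several fold in either direction remain within the error.

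Of the Ier genes, Ier2 had 26.7, 51.8 and 46.1 CPM in uninjured meninges and 46.5, 56.2 and 52.3 CPM in lung. Ier5, which is known to assist the heat shock factor HSF1, had 34.6, 21.7 and 19.6 CPM in uninjured meninges and 28.2, 42.1 and 59.2 CPM in lung. Both overlapped between the tissues, with log2 fold changes of -0.32 ± 0.43 for Ier2 and -0.77 ± 0.59 for Ier5. Ier3 was near the counting limit, with 9, 0 and 0 counts in uninjured meninges and 26, 7 and 69 counts in lung. That is 0.49, 0 and 0 CPM in uninjured meninges against 1.60, 0.516 and 4.42 CPM in lung, where the limit of 3 counts is 0.163 to 0.202 CPM in the uninjured meningeal libraries.

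The injury comparison set injured against uninjured meninges. Nr4a3 averaged 71.5 ± 17.4 CPM in injured meninges and 18.5 ± 9.76 CPM in uninjured meninges (SD, n = 3 each), a 3.88-fold ratio of the means, without passing the test (log2 fold change 1.96 ± 0.41 SE, 95% interval 1.07 to 2.84, edgeR adjusted p = 0.0864 over 15117 genes). This value was known when the 9 genes were picked. No member was called, where 0.192% of all tested genes were. In the same edgeR test 1 of the 9 members, Nr4a3, had an unadjusted p under 0.05, as had 1352 of 15117 tested genes. DESeq2 called 1 member, Nr4a3 (adjusted p = 0.000342). Of the 9, Nr4a3 was the 1 gene whose injured and uninjured meningeal libraries did not overlap, which 12.1% of all tested genes also showed. Of all tested genes, 5.35% were higher in injured meninges without overlap. A single gene without overlap among 9 is therefore near the background share. The adjusted p of Nr4a3 was 0.255 without injured meninges 2, 0.0494 without lung 1 (lung libraries enter through the shared estimate of spread) and 0.468 with only the 6 meningeal libraries.

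The direction for Nr4a1 and Nr4a2 depended on uninjured meninges 3. With all libraries, Nr4a1 averaged 12.9 ± 4.50 CPM in injured meninges and 25.4 ± 30.5 CPM in uninjured meninges, a log2 fold change of -0.97 ± 0.87 (95% interval -2.99 to 1.05). The Nr4a2 means were 10.8 ± 4.77 CPM in injured and 19.7 ± 32.9 CPM in uninjured meninges, with a log2 fold change of -0.86 ± 1.47 (-4.29 to 2.57). Neither passed (edgeR adjusted p = 0.826 for Nr4a1 and 0.919 for Nr4a2). Without uninjured meninges 3 the log2 fold changes were 0.71 ± 0.45 for Nr4a1 (adjusted p = 0.799) and 3.93 ± 0.61 for Nr4a2 (adjusted p = 0.0123), and that for Nr4a3 was 2.18 ± 0.50 (adjusted p = 0.22). Over the 9 genes the median log2 fold change was -0.86, against 0.00 for all tested genes, with 3 positive and 6 negative values.

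**Figure D3:**
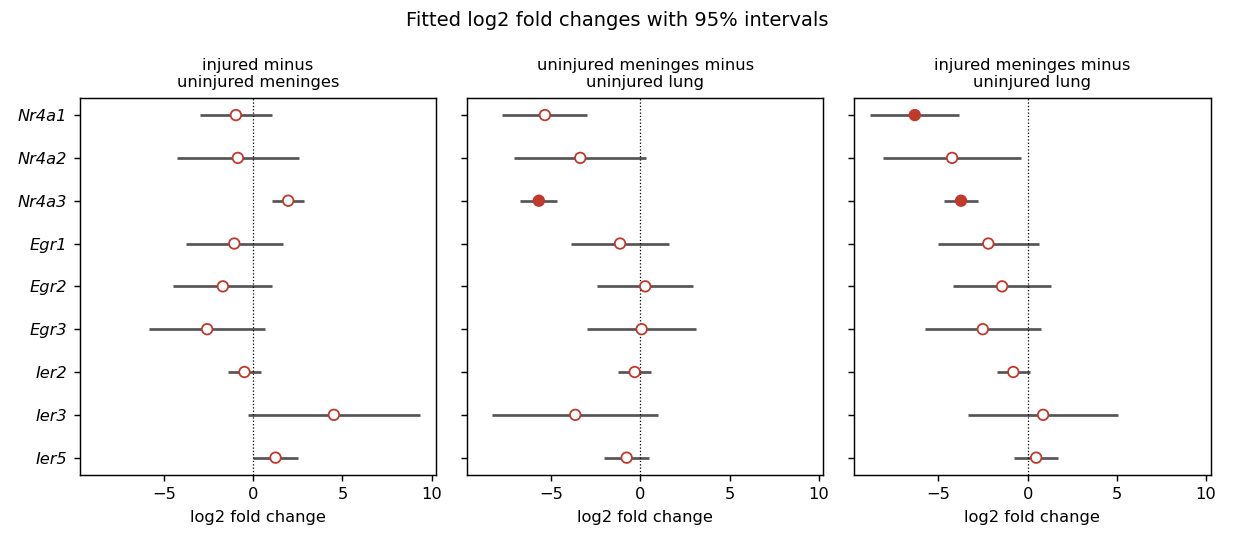
Fitted log2 fold change of each of the 9 genes (points) with its 95% interval (lines) for injured minus uninjured meninges, uninjured meninges minus uninjured lung and injured meninges minus uninjured lung; filled points were called at an adjusted p under 0.05 over all tested genes. Nr4a3 lies at 1.96 in the first panel, with an interval above 0, and Nr4a1, Nr4a2 and Nr4a3 lie furthest below 0 in the panel of uninjured meninges against lung together with Ier3.

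The Egr genes were lower on average in injured meninges without passing the test. Egr1 had 7.71, 27.2 and 206 CPM in injured meninges and 39.8, 120 and 342 CPM in uninjured meninges, a log2 fold change of -1.06 ± 1.17 (edgeR adjusted p = 0.866). Egr1 spanned 26.8-fold within the injured group, so the 3 injured libraries differed among themselves more than the group means did, and without uninjured meninges 3 the log2 fold change was 0.01 ± 1.27, while without injured meninges 3 it was -3.26 ± 0.96 (adjusted p = 0.385). Egr2 had 15.3, 0.0795 and 7.27 CPM in injured meninges and 1.63, 48.1 and 24.0 CPM in uninjured meninges (-1.70 ± 1.30, adjusted p = 0.768). Egr3 had 3.70, 0 and 0.251 CPM in injured meninges and 2.67, 10.8 and 10.5 CPM in uninjured meninges (-2.58 ± 1.53, adjusted p = 0.666). Injured meninges 2 held 1 count of Egr2 and 0 of Egr3, where 3 counts are 0.239 CPM. Without that library the log2 fold changes were -1.12 ± 1.18 for Egr2 and -2.0 ± 1.33 for Egr3. Without injured meninges 1 they were -2.73 ± 1.59 for Egr2 and -5.85 ± 1.83 for Egr3, and without uninjured meninges 2 Egr2 was at -0.75 ± 1.42.

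Ier5 and Ier3 had higher means in injured meninges and Ier2 a lower one, and none passed the test. Ier5 had 67.8, 13.2 and 98.96 CPM in injured meninges and 34.6, 21.7 and 19.6 CPM in uninjured meninges, a log2 fold change of 1.25 ± 0.59 (95% interval -0.02 to 2.51, edgeR adjusted p = 0.566). Injured meninges 2 was below all uninjured meningeal libraries and the other injured libraries were above them. The log2 fold change was 1.72 ± 0.44 without injured meninges 2 (adjusted p = 0.215) and 0.68 ± 0.64 without injured meninges 3 (adjusted p = 0.732). Ier3 had 14, 2 and 175 counts in injured meninges and 9, 0 and 0 counts in uninjured meninges, so injured meninges 3 carried most of the reads. Its fitted log2 fold change of 4.52 ± 2.27 (adjusted p = 0.589) rests on counts near 0 and was 1.55 without injured meninges 3 and 8.92 without uninjured meninges 1. Ier2 had 21.9, 39.0 and 28.1 CPM in injured meninges and 26.7, 51.8 and 46.1 CPM in uninjured meninges, a log2 fold change of -0.49 ± 0.43 (95% interval -1.40 to 0.43).

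Set against lung, injured meninges shared its lung libraries with the tissue comparison, so these values are a description too. The Nr4a3 level of injured meninges was 13.3-fold lower than that of lung by the ratio of means (log2 fold change -3.73 ± 0.44), and that of uninjured meninges was 51.6-fold lower. For Nr4a1 the level was 80.2-fold lower in injured and 40.8-fold lower in uninjured meninges than in lung, and for Nr4a2 it was 18.8-fold lower in injured and 10.3-fold lower in uninjured meninges. For Nr4a1 and Nr4a2 this order rested on uninjured meninges 3. Without that library, uninjured meninges had log2 fold changes against lung of -7.03 ± 0.60 for Nr4a1 and -8.16 ± 0.72 for Nr4a2, further from lung than injured meninges at -6.32 ± 0.48 and -4.23 ± 0.49 in the same fit. Of the 9, 2, Nr4a1 and Nr4a3, were called lower in injured meninges than in lung, where 1.05% of all tested genes were called and 0.873% were called lower, and 6 of 9 were lower without overlap, where 11.4% were. The call of Nr4a1 was lost without any 1 of the injured meningeal or lung libraries or without uninjured meninges 2, with log2 fold changes of -6.60 to -6.09 over those and the other libraries left out. Without uninjured meninges 3, Nr4a2 was called as well.

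Levels were compared between the 3 relatives after division by exon length, taken from GENCODE M21 as 3509 bases for Nr4a1, 4059 for Nr4a2 and 5987 for Nr4a3. This assumes that reads cover all annotated exons evenly, which was not checked in these amplified libraries. Nr4a3 made up 63.5%, 68.3% and 65.4% of the summed Nr4a CPM per kb in injured meninges, 49.4%, 52.8% and 11.3% in uninjured meninges and 29.3%, 29.3% and 35.0% in lung. Nr4a1 made up 17.6%, 19.0% and 23.1% in injured meninges, 47.3%, 43.7% and 48.6% in uninjured meninges and 59.2%, 60.7% and 55.9% in lung. Injured meninges had the largest Nr4a3 share and the smallest Nr4a1 share in every library, while lung had the reverse order of the 2 genes. Nr4a2 made up 40.2% in uninjured meninges 3 and 3.31% to 18.9% in the other libraries. The summed level was 20.8, 12.7 and 21.5 CPM per kb in injured meninges, 2.43, 7.70 and 35.4 in uninjured meninges and 289, 627 and 595 in lung. These shares come from the same reads as the levels above and were not tested.

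**Figure D4:**
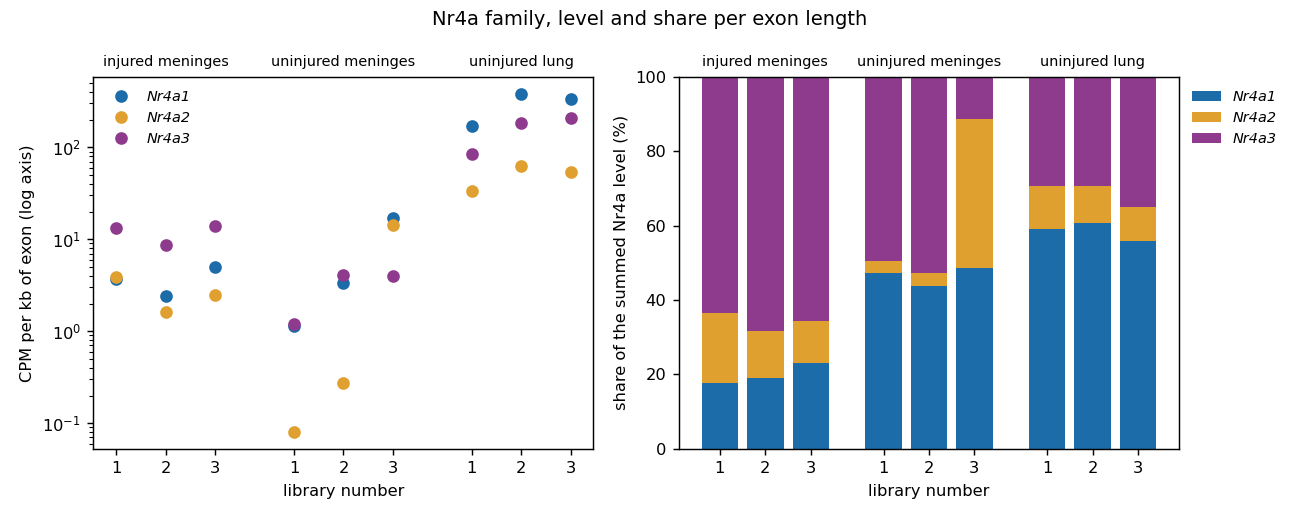
Left, level of the 3 Nr4a genes in CPM per kb of exon (log axis) in each library; right, share of each gene in their summed level in percent, with libraries 1 to 3 of injured meninges, uninjured meninges and uninjured lung. Nr4a3 takes 63.5% to 68.3% in injured meninges and 29.3% to 35.0% in lung.

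The Egr family, on the same scale with exon lengths of 4484, 3398 and 4406 bases for Egr1, Egr2 and Egr3, was made up mostly of Egr1 in 8 of 9 libraries, where it took 61.8% to 99.6% of the summed level. In injured meninges 1 it took 24.3% and Egr2 took 63.8%. That library also had the lowest Egr1 level of all 9, at 1.72 CPM per kb. Among injured meningeal libraries the order of Egr1 and of Egr2 therefore differed, with Egr1 highest in library 3 and Egr2 highest in library 1.

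Uninjured meninges 3 held high levels of more than the Nr4a genes. Of 34 other immediate early genes tested, 22 were highest in it among the 3 uninjured meningeal libraries, 9 in library 1 and 3 in library 2. For libraries 1, 2 and 3 the same counts were 12, 10 and 12 in injured meninges and 4, 13 and 17 in lung. Genes at 0 in all 3 libraries of a group were counted under library 1, although no library was highest for them. These were Atf3 in uninjured meninges and Atf3 and Fosl1 in injured meninges. The share of all tested genes that were highest in uninjured meninges 3 was not computed, so whether 22 of 34 exceeds it is not known. Fosb, a subunit of the AP-1 factor, had 177 CPM there and 4.95 and 15.0 CPM in the other uninjured meningeal libraries, and Jun, another subunit, had 75.4 against 5.33 and 8.0 CPM. Nr4a3, with 23.9 CPM in library 3 and 24.3 CPM in library 2, was not higher in library 3. Neutrophil markers summed to 59.7 CPM in uninjured meninges 3 and 32.0 and 3.29 CPM in libraries 1 and 2, and monocyte and macrophage markers were lowest in it, at 5.84 against 77.7 and 22.6 CPM. The part of such cells in these levels was not tested.

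The other immediate early genes, a list of 36 of which 35 were in the table and 34 were tested, give the setting of the 9. This list and those that follow were drawn up with earlier results of these data known. Their counts against lung are therefore a description and support nothing about the 9. In uninjured meninges against lung, 4 were called lower and none higher, with a median log2 fold change of -1.70 against 0.00 for all tested genes, and 21 were lower without overlap. Over all tested genes 0.595% were called lower and 10.6% were lower without overlap. The 4 were Dusp1, a MAP kinase phosphatase, at 27.8 ± 13.3 CPM in uninjured meninges and 304.5 ± 71.9 CPM in lung, Atf3, Zfp36 and Rgs2. Atf3, a stress-induced partner of AP-1, was at 0 in all 6 meningeal libraries and at 26.1, 47.3 and 50.3 CPM in lung. In injured against uninjured meninges none of the 34 was called by edgeR (0.192% of all tested genes were), and the median log2 fold change was -0.27, with 12 positive, 21 negative and Atf3 at 0. Fosl2, an AP-1 subunit, had the smallest p of that list, with 540 ± 151.5 CPM in injured and 153 ± 133 CPM in uninjured meninges (log2 fold change 1.82 ± 0.54, edgeR adjusted p = 0.384). Against lung, injured meninges had 9 of the 34 called lower, among them Junb, Klf4, Gadd45b and Sik1, and none of the 34 higher, where 0.873% of all tested genes were called lower.

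**Figure D5:**
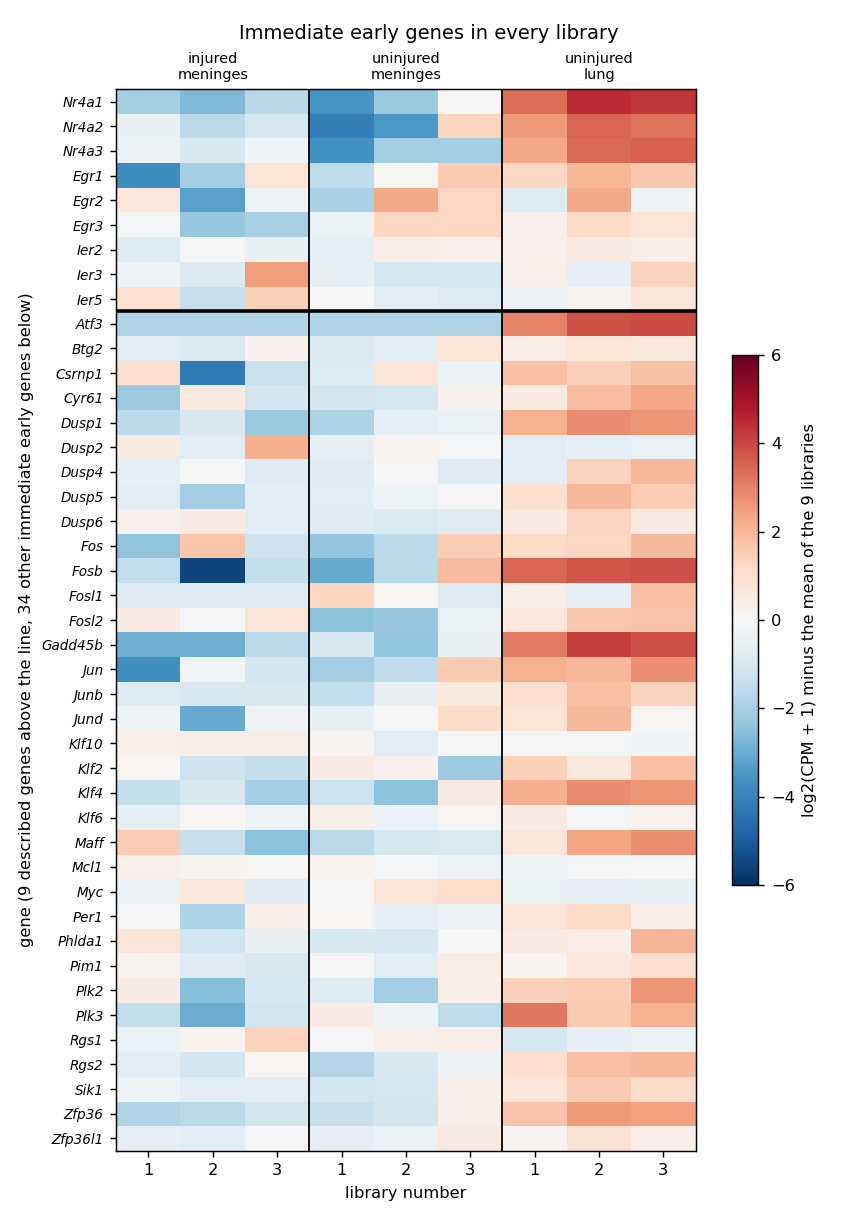
Level of the 9 described genes (above the black line) and 34 other immediate early genes (below it) in each library, as log2(CPM + 1) minus the gene's mean over the 9 libraries; red is above and blue below that mean, and columns are libraries 1 to 3 of injured meninges, uninjured meninges and uninjured lung. The lung columns are red for the Nr4a genes, Atf3, Fosb, Gadd45b and Dusp1, and library 3 of uninjured meninges is redder than libraries 1 and 2 for 22 of the 34.

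The 12 genes of the heat shock list summed to 1032 to 1350 CPM in injured meninges, 1302 to 1526 CPM in uninjured meninges and 1743 to 4013 CPM in lung. Of the 12, 3 were called lower in uninjured meninges than in lung, where 0.595% of all tested genes were: Hsp90aa1, Hspa1b and Hspa1a. All 12 had negative log2 fold changes there, and 8 were lower without overlap, against 10.6% of all tested genes. Hsph1, Hsp90ab1, Hspd1 and Bag3 overlapped between these groups. In injured meninges against lung 5 were called lower, where 0.873% of all tested genes were: Hspa1b, Dnaja1, Hsp90aa1, Hspa8 and Hspe1. Reads of Hspa1a and Hspa1b, near-identical copies, may be split between them. Lung libraries 1, 2 and 3 had heat shock sums of 1743, 4013 and 3023 CPM and lung epithelial marker sums of 2152, 685 and 1308 CPM. Fibroblast markers summed to 3.89 to 33.9 CPM in injured meninges, 4.65 to 82.0 CPM in uninjured meninges and 107 to 284.5 CPM in lung, with all 8 in the table, so lung was above every meningeal library. Endothelial markers, all 8 in the table, summed to 76.3 to 189.6 CPM in injured meninges, 64.7 to 276 CPM in uninjured meninges and 249 to 704 CPM in lung. Monocyte and macrophage markers, 7 of 8 in the table, summed to 61.4 to 135 CPM in injured meninges, 5.84 to 77.7 CPM in uninjured meninges and 34.3 to 479 CPM in lung. In these last 2 lists lung overlapped the meninges through lung library 2, which was the lowest lung library in both. The part of the heat shock response, or of epithelial, fibroblast, endothelial or myeloid cells, in the Nr4a levels was not tested.

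Among upstream regulators, Crem alone was called. Of 15 regulators of immediate early promoters, all tested, 1 was called in the tissue comparison, where 0.595% of all tested genes were called lower: Crem, which encodes activators and repressors of cAMP-responsive genes. It had 12.5, 26.4 and 51.4 CPM in uninjured meninges and 150, 346 and 435 CPM in lung, a log2 fold change of -3.37 ± 0.49. In injured meninges Crem had 141, 94.6 and 172 CPM, above all uninjured meningeal libraries, a log2 fold change of 2.17 ± 0.47 that missed the threshold (edgeR adjusted p = 0.0868). Crem thus had the order of groups that Nr4a3 had, but its injured and lung libraries overlapped. Srf, Creb1 and the other 12 were not called in either comparison, nor were the 8 genes of the calcium and NFAT list. Of the partners and relatives, Nab1 and Nab2, the corepressors of EGR proteins, and Rxra and Rxrb, which can pair with NR4A receptors, were not called. Rxra had 40.1 ± 7.62 CPM in injured and 18.3 ± 3.23 CPM in uninjured meninges (adjusted p = 0.532).

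Genes known to follow NR4A or EGR factors in lymphocytes formed a list of 16, with 15 tested. In injured against uninjured meninges 2 were called higher, where 0.132% of all tested genes were, and none of the 15 was called lower. Of the 15 log2 fold changes, 11 were positive and 4 negative. Pdcd1, the gene of the inhibitory receptor PD-1, had 73.4, 82.6 and 40.5 CPM in injured meninges and 1.25, 1.23 and 1.95 CPM in uninjured meninges (log2 fold change 5.47 ± 0.64, edgeR adjusted p = 0.00105). Tnfrsf9, the costimulatory receptor 4-1BB, had 96.2, 39.7 and 41.1 CPM in injured meninges and 3.21, 1.61 and 0.202 CPM in uninjured meninges (5.12 ± 0.87, adjusted p = 0.0218). The list was drawn up with both rises known. Pdcd1 had 28.6, 13.5 and 15.9 CPM in lung, below every injured library, whereas Nr4a3 was higher in lung than in injured meninges, so the order of groups differed between these genes. Areg, the growth factor amphiregulin, had 6.45, 5.09 and 14.5 CPM in injured meninges, 11.6, 19.8 and 25.9 CPM in uninjured meninges and 67.6, 319.8 and 222 CPM in lung.

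The genes whose profile over the 9 libraries came closest to each family were found by the root mean square difference of centred log2(CPM + 1) from the family's mean profile, over the 7284 genes that averaged 10 CPM or more. For the Nr4a genes these were Ifrd1 (0.91), the neutrophil chemokine Cxcl2 (0.94) and Atf3 (0.97), against a median of 2.68 over the genes compared. Ifrd1, a transcriptional coregulator, had 43.7, 32.2 and 56.6 CPM in injured meninges, 26.0, 27.7 and 63.5 CPM in uninjured meninges and 312, 583 and 901 CPM in lung, so it too was high in lung and, within uninjured meninges, highest in library 3. For the Egr family, where Egr1 and Egr2 reached the mean of 10 CPM, the closest were Alg14 (0.70), Naa10 (0.71) and the NF-kB regulator Nfkbiz (0.74), against a median of 1.63. For the Ier family, from Ier2 and Ier5, they were Ubp1, Sacm1l and Ddhd1 (each 0.18), against a median of 0.70, since many genes vary as little as that mean profile. The points are libraries that fall into 3 groups, and this closeness is a description with no test.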

How the data were processed

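The authors deposited 1 table of raw counts, whole numbers of reads per gene and library with no scaling. FastQC, STAR and HTSeq and the build mm9 are named, without versions or roles, per the submitters' processing notes. RNA came from a PicoPure extraction and was amplified with the Ovation V2 kit before fragmentation, per the labels' protocols. Strand handling in counting is not stated, and none of the 9 genes overlaps another gene in GENCODE M21. All 9 carried their symbol in the table. Promoter sequences and their coordinates are RefSeq's on GRCm38.p6, matched by symbol for 6 members, and play no part in the counts.

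Tests used edgeR 4.0.16 in R 4.3.3: filterByExpr by group, trimmed mean of M values, and robust quasi-likelihood F tests with a mean for each group over all 9 libraries. The filter kept 15117 genes, all 9 members among them, and the common biological coefficient of variation was 0.906. P-values were adjusted over all tested genes by Benjamini-Hochberg, with a threshold of 0.05. SE was taken from the log2 fold change and its F statistic. The procedure was run on simulated counts for the injury comparison only. Its recovery rates are not given here, and no result rests on them. DESeq2 1.42.0, other scalings and filters, fits of 6 libraries, a replicate block and 9 fits without 1 library each were alternatives. No replicate libraries agreed within sampling noise (chi-square per degree of freedom of 67.5 or more).

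The members and lists were chosen with earlier results of these data known. Named genes are all 9 members, up to 4 members of each list with the smallest p in the injury or tissue comparison and any called, and the 3 closest profiles per family, leaving out ribosomal and unnamed genes. Fosb, Jun, Srf, Creb1, Thy1, Hsph1, Hsp90ab1, Hspd1 and Bag3 were named after their values were seen.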

Additional observations from a re-analysis of the deposited data

How the results depend on the processing

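Across the alternatives, the fitted log2 fold changes of the 9 genes kept their direction and their side of the threshold in 397 cases. They gained a call without turning round in 11, lost one in 8 and turned round in 14. The 14 include Nr4a2 in the injury comparison without uninjured meninges 3, which also gained a call (log2 fold change 3.93, edgeR adjusted p = 0.0123). In the injury comparison 29 genes were called by edgeR, against 271 by DESeq2, 78 without a filter on low counts, 12 with only the 6 meningeal libraries and 18 to 27 with 1 library left out; members called were 0, against 1 by DESeq2 and 0 to 1 with 1 library left out. In uninjured meninges against lung 96 genes were called, against 420 by DESeq2, 193 without a filter, 226 with only the 6 libraries compared and 51 to 196 with 1 library left out; members called were 1, against 2 by DESeq2, 2 without robust estimation and 1 to 3 with 1 library left out. In injured meninges against lung 159 genes were called, against 789 by DESeq2, 296 without a filter and 54 to 230 with 1 library left out; members called were 2, against 1 without a filter and 1 to 3 with 1 library left out. With 1 library left out, log2 fold changes that turned round ranged as follows. In the injury comparison they were -1.47 to 0.71 for Nr4a1, -1.43 to 3.93 for Nr4a2 and -3.26 to 0.01 for Egr1, the highest of each without uninjured meninges 3. In uninjured meninges against lung they were -0.67 to 1.95 for Egr2 and -0.21 to 0.49 for Egr3. In injured meninges against lung they were -2.47 to 0.25 for Egr2, -2.10 to 1.91 for Ier3 and -0.09 to 0.95 for Ier5. The cause was not tested. Nr4a3 in the injury comparison ranged from 1.57 to 2.21 with adjusted p from 0.000342 (DESeq2) to 0.468 (only 6 libraries), and was called in 3 of 16 alternatives. The fit with only the 6 libraries compared gave no value for Ier3 in the injury and the uninjured tissue comparisons. Leaving out 1 library leaves 2 in its group, and the fit then pools the spread over all groups.

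Same-numbered libraries did not deviate together (correlations of -0.039 to 0.1), so replicate numbers were not taken as pairs. With a replicate block, edgeR called 1 member in the injury comparison (Nr4a3, adjusted p = 0.0168) and 2 in uninjured meninges against lung. Over all tested genes it called 43 in the injury comparison and 136 in uninjured meninges against lung. With the block the log2 fold change was 0.96 for Nr4a2 in the injury comparison and -0.05 for Ier3 in injured meninges against lung. Ier3, Egr2 and Egr3 had 3 counts or fewer in at least 1 library, where their levels are near the counting limit.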
